A study of Homo sapiens with 3 samples.

Results

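Wide CRY1 peaks are stretches of at least 600 bp over which chromatin of C4-2 cells was enriched by immunoprecipitation of CRY1. They were chosen by their width, the end minus the start of each interval in the deposited peak list, and 290 of the 2500 peaks on chromosomes 1 to 22 met that minimum. The list held 2551 peaks in all. The 49 peaks on chromosome X, 18 of them at least 600 bp wide, and 2 peaks on unplaced contigs were left out. The remaining 2210 peaks on chromosomes 1 to 22 are called narrower peaks here.

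C4-2, a cell line derived from human prostate cancer, no longer needs testicular androgens for growth and models castration-resistant disease. The cells were kept in hormone-proficient medium for 24 h before harvest, and the libraries are labeled Veh, with no drug or genetic change named. ChIP-seq gave 2 libraries precipitated with a CRY1 antibody and 1 input library, and the study asked where CRY1 sits on chromatin when androgens are present. Peaks were called on the replicates combined, so no value of a peak has a replicate error, and the read depth behind a peak is unknown from the list.

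CRY1 is a cryptochrome, a repressor of the circadian clock. CLOCK and BMAL1 form a pair of bHLH-PAS activators that bind the E-box CACGTG and switch on the PER and CRY genes, and PER and CRY proteins then return to the same sites and block the activators. CRY1 has no DNA-binding domain of the usual kind and reaches chromatin largely through these partners. Many clock genes are themselves targets of the loop, among them REV-ERB nuclear receptors and the PAR bZIP factors DBP, TEF and HLF, and some carry E-boxes in close tandem. The E′-box CACGTT is a weaker variant of the same element.

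The E-boxes nearest to the summit, the base of highest pileup, are shown for clock genes among the widest peaks, because these peaks carry the longest stretches of enrichment. Each window holds 60 bases of the plus strand of GRCh37 (hg19), with CACGTG and CACGTT, read on either strand, in capitals.
PER1, chr17:8059830-8059889: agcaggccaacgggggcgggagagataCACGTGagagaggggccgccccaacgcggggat
CIART, chr1:150254809-150254868: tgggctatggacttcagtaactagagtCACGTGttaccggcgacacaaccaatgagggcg
TEF, chr22:41777416-41777475: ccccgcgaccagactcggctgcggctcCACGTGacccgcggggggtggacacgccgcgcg
NR1D1, chr17:38255384-38255443: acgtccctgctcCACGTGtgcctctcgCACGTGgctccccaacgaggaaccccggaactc
PER2, chr2:239198073-239198132: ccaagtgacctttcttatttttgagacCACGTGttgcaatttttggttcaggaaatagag
CIPC, chr14:77565957-77566016: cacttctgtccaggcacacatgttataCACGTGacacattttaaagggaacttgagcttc
HLF, chr17:53315814-53315873: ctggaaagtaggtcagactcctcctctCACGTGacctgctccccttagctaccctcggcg
CRY2, chr11:45868811-45868870: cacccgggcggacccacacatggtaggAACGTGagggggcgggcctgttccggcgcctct
CRY1, chr12:107487384-107487443: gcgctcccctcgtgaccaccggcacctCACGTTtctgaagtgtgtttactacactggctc

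The windows of CRY2 and CRY1 hold only the E′-box, since neither wide peak had a CACGTG anywhere in its length. In PER2 the site shown lay 506.5 bp from the summit, measured to the centre of the hexamer. The site of NR1D1 lay 5.5 bp from its summit. CIPC is not on the list of clock genes counted further on. The window of HLF belongs to an intergenic peak 26.5 kb upstream of the start site, beyond the 5 kb used in those counts.

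Closely spaced pairs with a spacer of 6 or 7 bp, the arrangement known from tandem elements of clock genes, lay in 8 wide peaks. Of these, 7 are shown for this spacing, and only those of NR1D1 and HLF are named by a clock gene. The windows hold 50 bases, or 30 where the site touches an untranslated region.
TGFB2 (distal), chr1:218959504-218959553: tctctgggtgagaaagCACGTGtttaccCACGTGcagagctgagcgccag
HLF (distal), chr17:53315733-53315782: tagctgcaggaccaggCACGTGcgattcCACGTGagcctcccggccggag
ELFN1 (distal), chr7:1781627-1781676: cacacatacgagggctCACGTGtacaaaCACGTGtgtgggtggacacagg
TECPR1, chr7:97847262-97847311: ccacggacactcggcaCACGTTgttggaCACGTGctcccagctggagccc
GTF3A, chr13:27998813-27998842: tcccggCACGTGtctcggCACGTGgcagcg
RAD9A, chr11:67159326-67159355: ccggacAACGTGcgccgtCACGTGacggca
NR1D1, chr17:38257272-38257321: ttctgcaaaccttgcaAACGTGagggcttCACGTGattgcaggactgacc

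The peaks of DNAAF5 and GET4 held CACGTG in repeated units, and part of each repeat is shown because these had the most sites of all wide peaks.
DNAAF5, chr7:807382-807646: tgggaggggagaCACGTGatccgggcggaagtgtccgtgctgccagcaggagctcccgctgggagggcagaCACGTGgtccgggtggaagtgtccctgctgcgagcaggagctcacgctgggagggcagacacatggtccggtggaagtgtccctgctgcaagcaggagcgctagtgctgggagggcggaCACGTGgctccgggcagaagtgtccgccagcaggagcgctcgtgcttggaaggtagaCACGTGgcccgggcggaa
GET4, chr7:915910-916029: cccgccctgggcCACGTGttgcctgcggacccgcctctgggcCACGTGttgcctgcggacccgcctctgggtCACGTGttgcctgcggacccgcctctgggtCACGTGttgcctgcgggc

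Finally, 101 bases centered on the summit are shown for 3 of the strongest wide peaks that had no CACGTG in their whole length.
INAFM2, chr15:40615658-40615758: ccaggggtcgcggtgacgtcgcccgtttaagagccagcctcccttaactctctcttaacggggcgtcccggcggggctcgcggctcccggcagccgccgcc
TXNIP, chr1:145438247-145438347: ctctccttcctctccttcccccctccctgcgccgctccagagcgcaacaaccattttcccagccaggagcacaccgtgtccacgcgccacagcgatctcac
DBP, second peak, chr19:49140967-49141067: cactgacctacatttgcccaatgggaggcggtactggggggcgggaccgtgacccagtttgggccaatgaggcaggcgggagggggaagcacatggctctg

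The wide peaks had a median width of 803 bp, with quartiles at 678 and 983 bp and a range of 603 to 3737 bp. They made up 11.6% of the peaks and 36.3% of the bases that peaks covered. Joined where they lay within 10 kb of each other, they fell into 278 loci, and 23 of them had another wide peak in that distance. Of the 290, 167 (57.6%) spanned an annotated start site of a protein-coding gene. A longer interval has more room to span one, so this count follows in part from the selection and was not compared with narrower peaks. Each chromosome from 1 to 22 held some, from 3 on chromosome 21 to 28 on chromosome 17, and the wide share of a chromosome's peaks ran from 6% on chromosome 5 to 20.7% on chromosome 22.

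Fold enrichment, the authors' ratio of the pileup at the summit to the local background, had a median of 10.1 in wide peaks (range 3.03 to 24.0) and of 5.01 in narrower peaks (2.39 to 16.03). The median −log10 q was 26.9 against 5.45. Of the 50 peaks with the highest fold enrichment 48 were wide, as were 90 of the 100 highest. Conversely, 213 of the 361 peaks with a fold enrichment of at least 8 were wide (59%). Width and fold enrichment come from the same pileup, so these values describe the selection and were not tested. Across all 2500 peaks their Spearman correlation was 0.585, and within the 290 wide peaks it was 0.377.

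**Figure D1:**
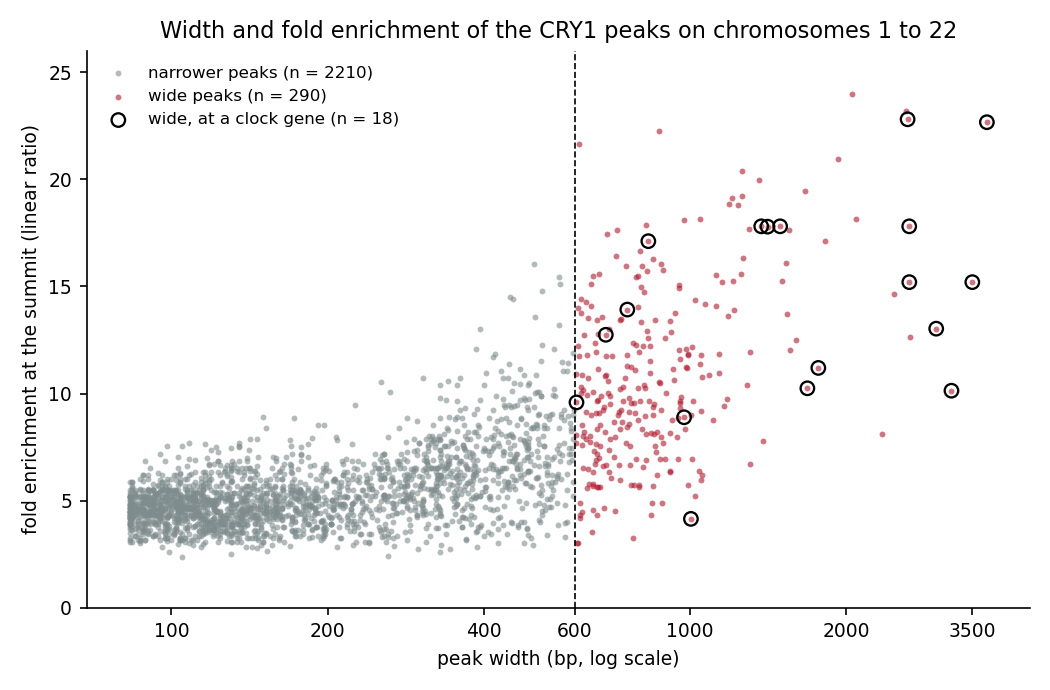
Each point is a CRY1 peak on chromosomes 1 to 22, with its width in bp on a log axis and the authors' fold enrichment, a linear ratio, on the vertical axis. Red points right of the dashed line at 600 bp are the 290 wide peaks, gray points the 2210 narrower peaks, and circles the 18 wide peaks within 5 kb of the start site of a listed clock gene, which lie between 4.15 and 22.8 on the fold enrichment axis.

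Clock genes were frequent among the widest peaks. PER1, a period gene of the repressor limb, had a peak of 3503 bp at chr17:8057235-8060737, a fold enrichment of 15.2 and 2 sites 184 bp apart. The peak of CIART, a repressor that binds BMAL1, was 3193 bp wide at chr1:150253426-150256618 and had 5 CACGTG sites and a fold enrichment of 10.1. The cryptochrome CRY2 had 2984 bp at chr11:45867572-45870555, and its fold enrichment was 13.03.

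The next in order mixed clock genes with genes of other functions. GTF3A, the transcription factor of the 5S ribosomal RNA genes, had a peak of 2658 bp at chr13:27998109-28000766 with a fold enrichment of 12.6. TEF, a PAR bZIP activator of clock output, had 2648 bp and 15.2. NR1D1, which encodes the BMAL1 repressor REV-ERBα, had 2647 bp and 17.8, and its summit lay in an intron 1434 bp downstream of the start site. PER2 had 2628 bp at chr2:239196378-239199005 and the third highest fold enrichment of all peaks, 22.8.

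SSPN, which encodes the dystrophin-associated protein sarcospan, had 2613 bp at chr12:26265961-26268573. Its summit was intergenic, 7495 bp upstream of the gene, and its fold enrichment of 23.2 was the second highest. CIPC, a CLOCK-interacting repressor, had an intronic summit in a peak of 2479 bp with a fold enrichment of 14.7. The intergenic peak nearest to HLF lay 26.5 kb upstream of the start site and spanned 2341 bp, and its fold enrichment of 8.09 was the lowest of the 12 widest. RALGDS, an exchange factor for Ral GTPases that is driven by RAS, had 2093 bp and 18.1.

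**Figure D2:**
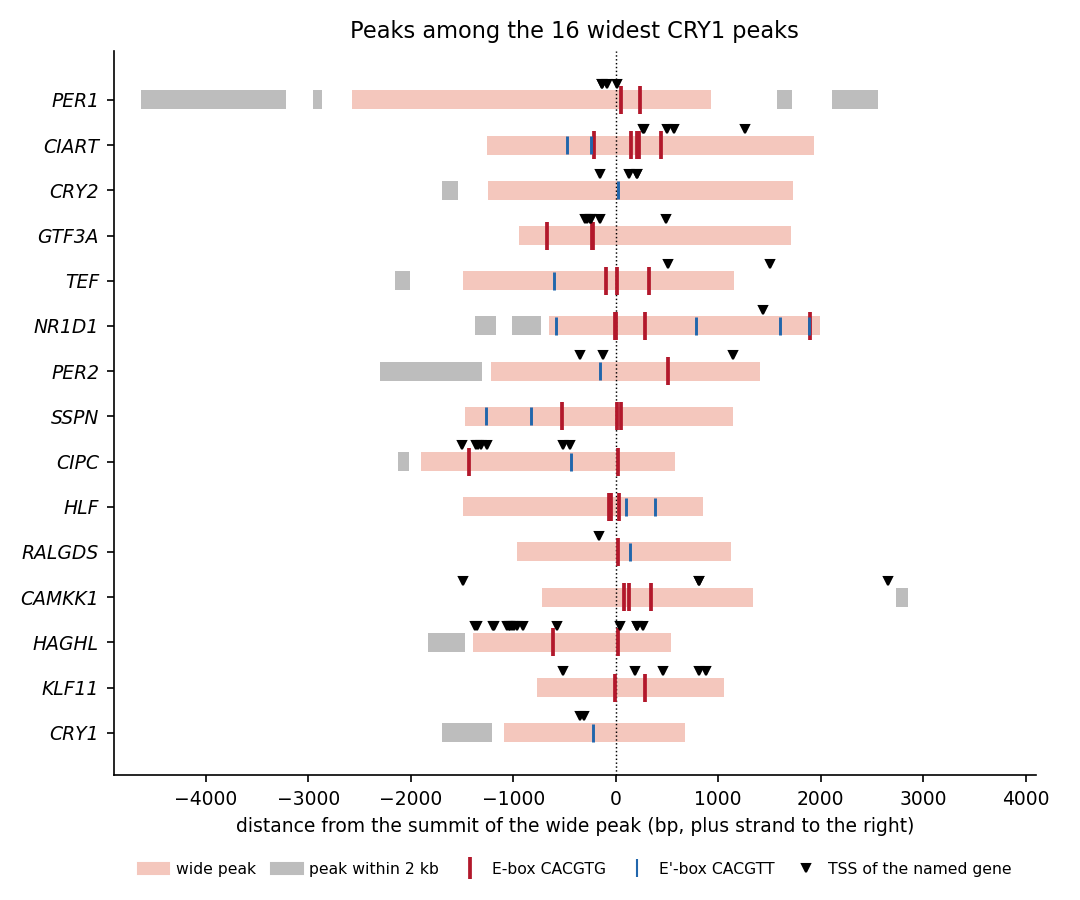
Peaks among the 16 widest CRY1 peaks, aligned at their summits, with the distance in bp on the horizontal axis and each peak named by its nearest protein-coding gene. Pale red bars are the wide peaks, gray bars other peaks with an edge within 2 kb, long red ticks CACGTG, short blue ticks CACGTT and black triangles start sites of the named gene. CRY2 and CRY1 have only a blue tick, and PER2 has its CACGTG 506.5 bp from the summit.

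By fold enrichment the order was different. CAMKK1, a kinase that activates calmodulin kinases, was first with 24.0 in an intronic peak of 2053 bp at chr17:3794815-3796867, followed by SSPN and PER2. EPS8L2, a regulator of actin bundles, reached 22.3 in a peak of only 873 bp. INAFM2 reached 21.6 in 612 bp, just above the minimum width. HAGHL (20.9), the trafficking gene TRAPPC6A (20.4), the synaptic adhesion gene ELFN1 (19.9) and CLN6 (19.4), which encodes a protein of the endoplasmic reticulum, were also among the first 10.

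At the other end, the weakest wide peaks were near ALOXE3, an epidermal lipoxygenase, with a fold enrichment of 3.03, KIAA1671 (3.05), the morphogen gene SHH (3.25), TMEM184A (3.55) and PER2, whose second wide peak had 4.15. The first of these, ALOXE3, had a CACGTG 15.5 bp from its summit. The members nearest to the minimum width were STK40 (603 bp, fold enrichment 10.9), KHSRP (604 bp, 7.70) and PER3 (604 bp, 9.59). Just below it were RELL1 (597 bp, 9.22), EPB41L5 (596 bp, 9.003) and TMEM179 (596 bp, 5.22), so the values on either side of the limit overlapped.

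Of the 28 listed genes of the circadian clock, 13 had a wide peak within 5 kb of a start site (46.4%) and 18 had any peak. Among all 19222 protein-coding genes of chromosomes 1 to 22, 271 (1.41%) had a wide peak and 1645 (8.56%) any peak. Among the 13 were PER1, PER2, PER3, CRY1, CRY2, NR1D1, NR1D2, DBP, TEF, HLF, BHLHE40 and CIART. BHLHE41, CSNK1E, TIMELESS, USP2 and NOCT had narrower peaks alone within 5 kb, and wide peaks farther away were not counted. These are counts of genes from a list chosen with earlier results of these peaks known, and no set test was made.

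PER1, PER2, PER3, DBP and HLF each had 2 wide peaks within that distance. PER1 had a second wide peak of 1411 bp with a fold enrichment of 17.8, above the 15.2 of its wider neighbor. PER3 had 1372 bp and 17.8 at the start site, beside the peak of 604 bp that lay 752 bp upstream. DBP had 688 bp and 12.7 with 2 CACGTG sites, the nearest 2.5 bp from the summit, and a second peak of 831 bp and 17.1 without any. This second peak lay 381 bp upstream of a DBP start site, and the nearest annotated start site of any kind there was that of SEC1P.

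At HLF, the promoter peak had 757 bp, a fold enrichment of 13.9 and no CACGTG, whereas the intronic peak had 974 bp, 8.89 and 1 site. NR1D2, the paralog of NR1D1, had 1492 bp and 17.8 with 3 CACGTG sites. BHLHE40, a bHLH repressor that itself binds E-boxes, had 1684 bp and 10.3 with the nearest site 260.5 bp from the summit. The promoter of CRY1 itself held a peak of 1768 bp with a fold enrichment of 11.2, at chr12:107486544-107488311.

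The other lists held few wide peaks. Of 34 bHLH factors and their partners beyond the clock, 9 had any peak and 3 a wide one: the MYC antagonist MNT, the hypoxia factor HIF1A (736 bp, 13.5) and the Notch target HES1 (820 bp, 10.3). MNT had 3 wide peaks, of 815, 681 and 663 bp, and the strongest of them (14.8) had no CACGTG but 1 CACGTT. Of 28 genes of glycolysis and the hypoxia response, 10 had any peak and 3 a wide one, namely PFKFB3 (689 bp, 10.9), which makes the activator of phosphofructokinase, lactate dehydrogenase LDHA (761 bp, 8.60) and PDK1 (1052 bp, 5.96), a brake on pyruvate dehydrogenase.

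Among 31 genes of lysosomes and autophagy, 8 had any peak and 3 a wide one: the proton pump subunit ATP6V0D1 (716 bp, 7.99), FNIP1 (699 bp, 7.35) and RRAGC (658 bp, 7.65), of which the last 2 act in nutrient sensing by mTORC1. Of 28 androgen receptor targets, 10 had any peak and 2 a wide one. TMPRSS2, an androgen-driven protease gene, had 688 bp and 11.7 in an intron 4216 bp downstream of its start site, and HERC3 had 604 bp and 8.05. KLK3 and FKBP5 were among the 8 androgen receptor targets with narrower peaks alone.

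Of 32 cell cycle genes 6 had any peak and CDK4, a kinase of the G1 phase, was the only one with a wide peak (898 bp, 10.01). Of 33 nuclear receptors and coregulators beyond the clock list 8 had any peak (24.2%) and 0 a wide one within 5 kb of a start site. RXRA, which is on that list, was the nearest coding gene of a wide peak 10.8 kb upstream (985 bp, 11.2). NR6A1, a nuclear receptor that is not on that list, had a wide promoter peak of 1604 bp with a fold enrichment of 12.49. Of 27 DNA repair genes 2 (7.41%), XRCC3 and POLD2, had any peak and 0 a wide one, beside 8.56% and 1.41% of all protein-coding genes. Repair genes that are not on that list did have wide promoter peaks, among them the checkpoint clamp subunit RAD9A (847 bp, 9.003), the repair polymerase POLB (640 bp, 7.72) and the TFIIH subunit GTF2H1 (662 bp, 5.65). The counts of 0 therefore hold for the listed genes and the distance of 5 kb alone. RXRA and these off-list genes were named after their values were seen.

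A CACGTG lay within 50 bp of the summit in 202 of the 290 wide peaks, 69.7% (Wilson 95% interval 64.1 to 74.7), and in 991 of the 2210 narrower peaks, 44.8% (42.8 to 46.9). Over all 2500 peaks the share was 47.7%. The odds ratio was 2.82 (95% interval 2.17 to 3.68; two-sided Fisher's exact test, p = 1.35e-15, Benjamini-Hochberg adjusted p over 14 motifs 1.89e-14). The window had the same length in every peak, so the number of bases searched did not grow with width. Peaks of 1 list are not replicates, and the interval and p cover only the counting of peaks. Centered on the midpoint of each peak in place of its summit, the window held a CACGTG in 31.4% of wide and 32.4% of narrower peaks (odds ratio 0.954), but the midpoint follows from the start and end that set the width.

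Among promoter summits the shares were 66.1% of 183 wide and 40.3% of 1210 narrower peaks, and among the other summits 75.7% of 107 and 50.3% of 1000. With both sets restricted to a fold enrichment of at least 8, which differs between them by the way wide peaks were chosen, the shares were 71.8% of 213 and 57.4% of 148 (odds ratio 1.89, adjusted p = 0.0686, Fisher's exact test), and the call was lost. By level of fold enrichment, the wide share was the higher one below 5 (68.8% of 16 against 35.9% of 1069) and from 5 to 6 (81.3% of 16 against 45.2% of 549). From 6 to 8 it was the lower one, 55.6% of 45 against 61.7% of 444. From 8 to 10 the shares were 70.3% of 64 and 65.0% of 103, and from 10 to 13 they were 78.6% of 70 and 50% of 36.

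Above a fold enrichment of 13, 67.1% of 79 wide peaks had a CACGTG at the summit and 0 of 9 narrower peaks did (Wilson upper limit 29.9%), all 9 of which lay at promoters. Within the wide peaks the summit share was not higher in the wider bins. It was 72.7% at 600 to 799 bp, 72.2% at 800 to 999 bp, 61.4% at 1000 to 1499 bp and 58.3% at 1500 bp and more, with overlapping intervals. The narrower peaks rose from 37.2% below 150 bp to 58.0% at 300 to 599 bp.

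**Figure D3:**
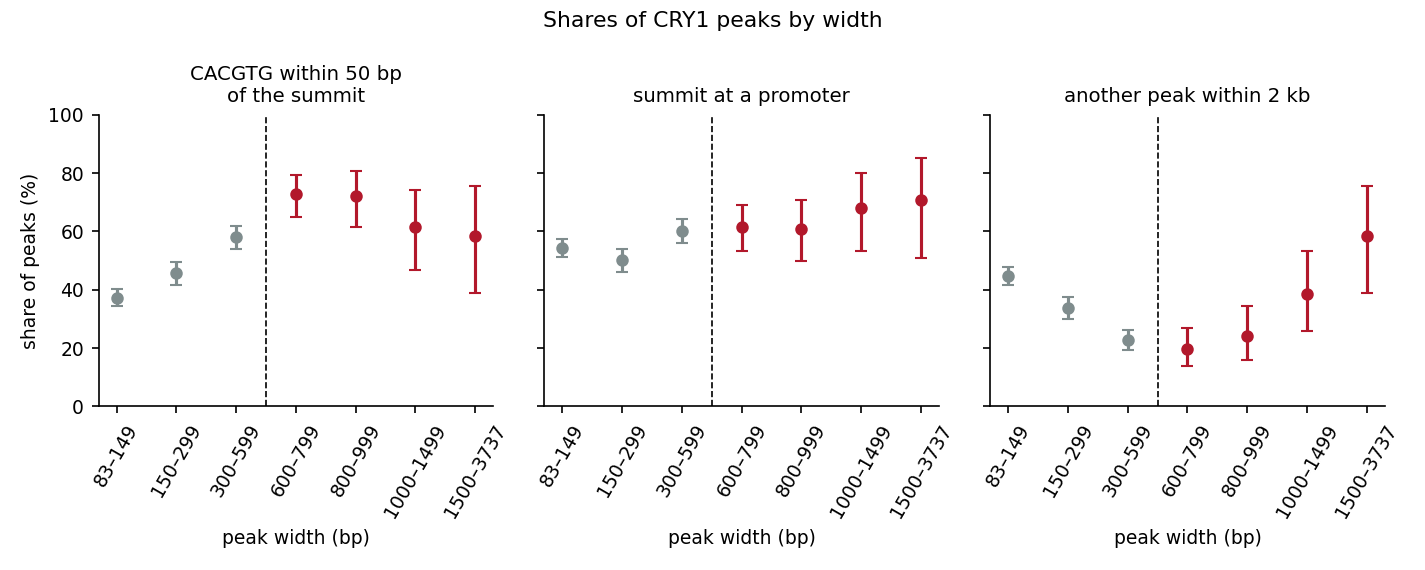
Share of peaks in percent by peak width in bp, for CACGTG within 50 bp of the summit, a summit at a promoter, and another peak within 2 kb. Points are shares and bars Wilson 95% intervals, with narrower peaks in gray, wide peaks in red and the dashed line at 600 bp. The summit E-box share reaches 72.7% at 600 to 799 bp, and the share with another peak nearby falls to 19.6% there and is 58.3% in the widest bin.

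The other motifs were rarer at wide summits than CACGTG. The E-box-like CACGCG was within 50 bp of 16.9% of wide and 10.2% of narrower summits (odds ratio 1.78; Fisher's exact test, adjusted p = 0.00605). The GC box GGGCGG, bound by SP and KLF factors, was at 35.9% and 26.2% (odds ratio 1.57; Fisher's exact test, adjusted p = 0.00520), and the median GC content of the 101 bp was 67.3% and 63.4%. Tandem pairs of E-boxes were at 4 wide summits (1.38%) and 5 narrower ones (0.226%), with an odds ratio of 6.17 (1.65 to 23.1) and an adjusted p of 0.0487. The ETS motif CCGGAAGT, at 2.07% and 0.633%, did not pass (Fisher's exact test, adjusted p = 0.0612), nor did the E′-box (8.28% and 6.33%, adjusted p = 0.291).

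AGAACA, the core of androgen receptor elements, was at 14 wide summits (4.83%) and at 4.30% of narrower ones, with an odds ratio of 1.13 (0.635 to 2.01). The forkhead motif TGTTTAC was at 2.76% and 2.4%. The share of the D-box TTATGNAA, to which DBP, TEF and HLF bind, was 1.03% and 0.407%, and that of the ROR site TAGGTCA was 0.690% and 0.769%. For these motifs the intervals of the odds ratios all held 1, which leaves small differences in either direction possible. Each match is a string of letters on either strand of the reference and no measured site.

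Counted over the whole peak, 259 of the 290 wide peaks (89.3%, 85.2 to 92.4) held a CACGTG and 134 (46.2%, 40.6 to 52.0) held 2 or more. The number was 1 in 125 peaks, 2 in 95, 3 in 27, 4 in 7 and 5 in 3. The remaining peaks with sites were those at GET4, with 9, and DNAAF5, with 14. The sites numbered 462 in all. Within a fixed 300 bp on each side of the summit, 36.6% of wide and 14.2% of narrower peaks had 2 or more.

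The density was 1.69 sites per kb inside wide peaks and 0.203 per kb in flanks of the same width on both sides, a ratio of 8.32. More than 100 bp from the summit it was still 0.795 per kb, 3.91 times that of the flanks. Narrower peaks had 2.89 sites per kb inside and 0.388 in their flanks, so per base the wide peaks were the less dense ones. The ratio over adjacent flanks was 7.44 in narrower peaks, below the 8.32 of wide peaks. More than 100 bp from the summit, narrower peaks had 0.980 per kb, 2.53 times that of their adjacent flanks. Both orders depended on the choice of flanks. In flanks that began 1 kb away, the density was 0.179 per kb for wide and 0.214 per kb for narrower peaks. Over those flanks both ratios were higher in narrower peaks. The peaks compared differ in length, with median widths of 803 bp (wide) and 158 bp (narrower). Within wide peaks, the number of sites within 300 bp of the summit had a Spearman correlation of 0.142 with width and of 0.0082 with fold enrichment (n = 290).

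**Figure D4:**
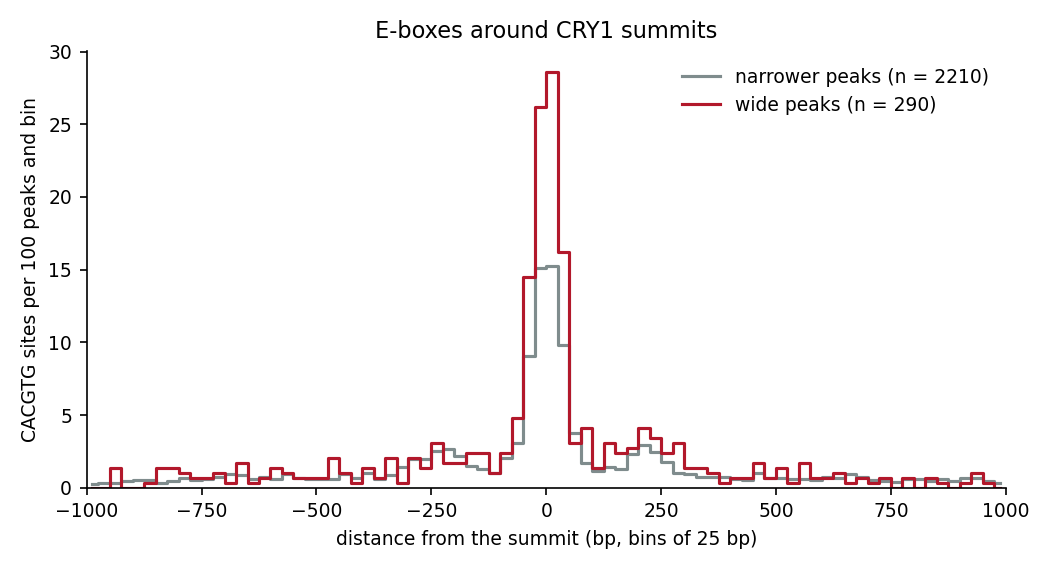
CACGTG sites per 100 peaks and bin of 25 bp against the distance from the summit in bp, for 290 wide peaks (red) and 2210 narrower peaks (gray). The bins next to the summit hold 26.2 and 28.6 sites per 100 wide peaks and 15.1 and 15.2 per 100 narrower peaks, and both lines have a low shoulder near 225 bp.

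The summit lay close to a site in most peaks that had one. The median distance from the summit to the nearest CACGTG in the peak was 22.5 bp in wide and in narrower peaks, and it was over 100 bp in 42 of the 259 wide peaks with a site. The farthest were 701.5 bp near DIP2C, 506.5 bp at PER2 and 487.5 bp at RNF157, named after their values were seen. In the 125 wide peaks with exactly 1 site, 96 had it within 50 bp of the summit (76.8%). In the 134 with 2 or more, the summit lay between the outer sites in 82, and both of the nearest sites were within 50 bp in 42 (31.3%).

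Per 100 wide peaks and 25 bp, 21.4 sites lay within 50 bp of the summit and 1.98 at 100 to 150 bp. The value was 3.10 at 200 to 250 bp (36 sites) and 1.29 at 300 to 350 bp (15 sites), so there was a shoulder away from the summit. Narrower peaks had the same shape, with 1.22 at 100 to 150 bp, 2.65 at 200 to 250 bp and 0.984 at 300 to 350 bp. The shoulder was noticed in the plot of E-boxes around the summits and was not tested.

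The spacings of neighboring sites were broad. A spacing was counted from the start of a CACGTG to the start of the next. The 203 spacings within wide peaks had a median of 95 bp, or 110 bp over the 182 that were left without DNAAF5 and GET4. Of those 182, 30 were 6 to 25 bp, 23 were 26 to 50 bp, 34 were 51 to 100 bp, 28 were 101 to 200 bp, 32 were 201 to 400 bp and 35 were longer. No distance dominated, and the most frequent ones, 11 and 12 bp, occurred 5 times each.

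Pairs of CACGTG or CACGTT with spacers of 0 to 30 bp numbered 59 outside the DNAAF5 and GET4 peaks. A spacer was counted as the bases between the sites of a pair. Spacers of 5 and 6 bp were found 7 times each and a spacer of 7 bp once, at NR1D1. For pairs of CACGTG, spacers of 5 and 6 bp are the same arrangements as the spacings of 11 and 12 bp. The 6 or 7 bp pairs lay in 8 wide peaks (2.76%) and in 7 narrower ones (0.317%), over whole peaks that differ in length. The autophagy gene TECPR1 had its pair 17.5 bp from the summit. The distal peak whose nearest coding start site, that of TGFB2, was 352 kb away, had a pair 23.5 bp from the summit and a fold enrichment of 10. At NR1D1 the pair was 1889 bp from the summit, near the other end of the peak, while a different pair of CACGTG sites lay at the summit itself.

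The peaks with most sites were DNAAF5 (14), GET4 (9), NCL, CDK4 and CIART (5 each). DNAAF5, a factor for assembly of dynein arms, had its sites over 1013 bp, and 7 of the 13 spacings were 59 bp. The 9 sites of GET4, a component of tail-anchored protein insertion, covered 244 bp at spacings of 30 bp (6 times) and 29 bp (2 times). Despite 14 sites, the fold enrichment at DNAAF5 was 7.81, below the median of wide peaks, and at GET4 it was 11.8. Reads from repeated units can align to more than 1 unit, so the shape of these peaks is uncertain. NCL, the gene of nucleolin, had 9.56 and CDK4 10.01.

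The bases on either side of CACGTG were similar in both sets. Read on the strand that comes first in the alphabet, CCACGTGA was the most frequent form at wide summits, with 48 of 239 sites (20.1%), followed by CCACGTGC with 41 (17.2%). At narrower summits the order of these was CCACGTGC (17.8%) and CCACGTGA (15.4%). The shares were not tested.

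The 31 wide peaks without a CACGTG (10.7%) had a median fold enrichment of 9.93, against 10.1 in the others. Their median width was 715 bp against 810 bp. Of the 31, 24 lay at promoters (77.4%, 60.2 to 88.6), as did 159 of the 259 with a site (61.4%, 55.3 to 67.1). A CACGTT was present somewhere in 9 of the 31 peaks. Within 50 bp of the summit, 8 held a CACGCG (25.8%, against 15.8% of those with CACGTG) and 13 a GC box (41.9% against 35.1%). In 7 a CACGTG lay in the flank next to the peak.

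The highest fold enrichments in this set were at INAFM2 (21.6), TXNIP (19.2), GGA1 (17.6), CTDSP1 (17.4) and the second peak of DBP (17.1). TXNIP, which binds thioredoxin and restrains glucose uptake, had a peak of 1262 bp at chr1:145437853-145439114 with its summit 193 bp upstream of the start site. GGA1, a clathrin adaptor of the Golgi, had 723 bp and 1 CACGTT, while CTDSP1, a phosphatase of the RNA polymerase II tail, had 693 bp and none. The 31 also included the wide peaks at CRY1 and CRY2, the upstream peak of PER3, the promoter peak of HLF and the weaker peak of PER2, so 6 of the 18 wide peaks at clock genes, with the second peak of DBP, lacked the site.

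Wide peaks lay at promoters more often than narrower ones. A promoter was taken as the 1 kb before any annotated start site and the 100 bp after it, and promoters held 183 wide summits (63.1%, 57.4 to 68.5) and 1210 narrower ones (54.8%, 52.7 to 56.8). Over all peaks the promoter share was 55.7%. The odds ratio was 1.41 (1.098 to 1.82; two-sided Fisher's exact test, p = 0.00819, adjusted over 7 classes 0.0287). Intergenic summits were fewer, 18 (6.21%) against 11.2%, with an odds ratio of 0.526 (0.321 to 0.863) and the same adjusted p.

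Introns held 67 wide summits (23.1%) and 24.0% of narrower ones (odds ratio 0.95, 0.711 to 1.27). Exons had 7 (2.41%), termination sites 11 (3.79%) and each of the 2 untranslated regions 2 (0.690%), and none of these classes passed. The promoter difference was not present among peaks with a fold enrichment of at least 8, where 65.3% of 213 wide and 66.9% of 148 narrower summits were at promoters (odds ratio 0.930, adjusted p = 0.958, Fisher's exact test). It also lost its call when chromosome X was included (59.7% against 54.3%, adjusted p = 0.268, Fisher's exact test), since only 1 of the 18 wide peaks there lay at a promoter, whereas 15 of those 18 had a CACGTG at the summit.

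Wide summits lay a median of 310 bp from the nearest protein-coding start site, against 479 bp for narrower ones, and 15.5% against 24.4% were more than 10 kb away. Promoters with coding start sites on both strands within 1 kb held 6.90% and 6.43%. The distal members included the peaks nearest to SSPN, HLF and TGFB2 described above, and that of ELFN1, whose summit lay 71.8 kb downstream of the start site. A gene name there marks only the nearest start site.

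The summit sat near the middle of wide peaks. Counted from the lower coordinate, its median place was 50.1% of the width (quartiles 40.9 and 59.6%), and 224 of 290 summits (77.2%, 72.1 to 81.7) lay in the central part from 33.3 to 66.7% of the width. Narrower peaks had 51.1% there. The outer 10% at either end held 4 wide summits (1.38%) and 4.71% of narrower ones. The share in the central part was 82.4% with 1 CACGTG, 74.6% with 2 or more and 67.7% without one.

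Off-center summits were found at NR1D1 (24.6% of the width), PER1 (73.5%) and CIPC (76.7%) among the widest. The second PER2 peak had its summit at 93.2%, at the end that faced the stronger PER2 peak 83 bp away. At SHH the summit was at 7.73%. The place of the summit comes from the same pileup as the width and was not tested.

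**Figure D5:**
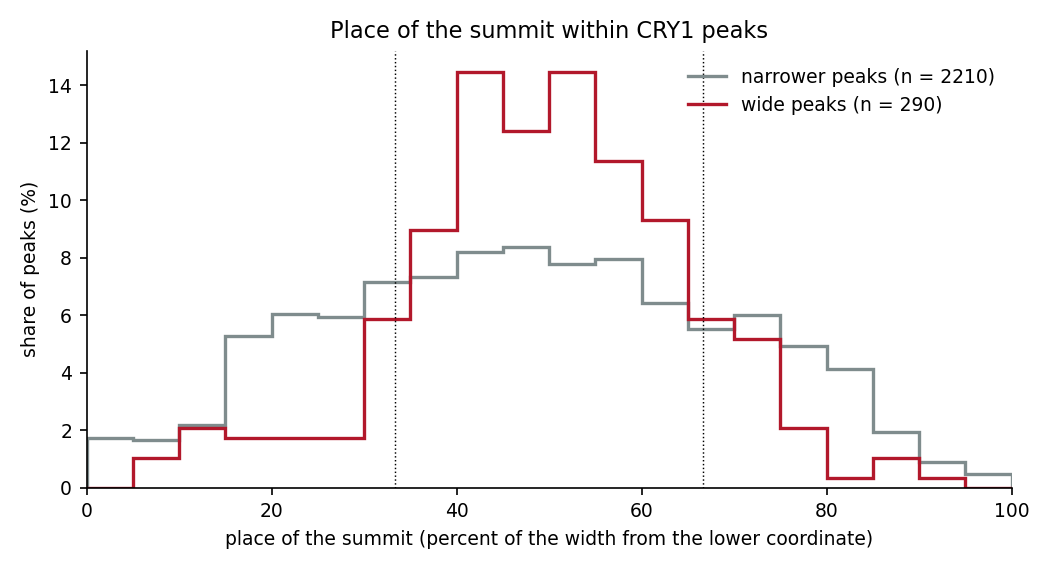
Share of peaks in percent against the place of the summit, as a percent of the width from the lower coordinate in bins of 5%, for 290 wide (red) and 2210 narrower peaks (gray). Dotted lines mark the central part, which holds 77.2% of wide and 51.1% of narrower summits.

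Satellite peaks, other peaks with an edge within 2 kb, accompanied 78 wide peaks (26.9%, 22.1 to 32.3) and 796 narrower ones (36.02%, 34.0 to 38.0). Over all peaks the share was 35%. Of the wide peaks 54 had 1 satellite, 18 had 2, 4 had 3 and 2 had 4. The share rose with width among wide peaks, from 19.6% at 600 to 799 bp to 24.1%, 38.6% and 58.3% in the wider bins, while among narrower peaks it fell from 44.7% below 150 bp to 22.6% at 300 to 599 bp. The distance between neighboring calls is set by the peak caller on the same pileup, so these shares were not tested.

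The satellites were mostly small peaks without an E-box. Each counted once, the satellites of wide peaks numbered 104, and 14 of them were wide themselves. The 90 narrower satellites had a median width of 137 bp and a median fold enrichment of 4.73, and 86 of them were weaker than the wide peak they accompanied. The median gap was 184 bp, and in 64 it was under 500 bp. A CACGTG lay within 50 bp of 11 of their summits (12.2%, 7.0 to 20.6), against 46.2% (44.1 to 48.3) of the 2120 narrower peaks elsewhere.

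PER1 and SBNO2 had the most satellites, with 4 each. Those of the widest PER1 peak were the second wide peak of the gene and 3 peaks of 89, 144 and 456 bp with fold enrichments of 5.20, 3.57 and 6.84. At SBNO2, a regulator of inflammatory transcription, a peak of 820 bp with a fold enrichment of 8.97 had satellites of 100 to 197 bp with fold enrichments from 3.16 to 5.37. HNRNPF, a splicing factor gene, and MNT had 3. At HNRNPF 1 satellite of 356 bp reached 9.64, above the 7.28 of the wide peak. None of the satellites of PER1 that were narrower, nor those of SBNO2 and HNRNPF, had a CACGTG at the summit.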

How the data were processed

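ChIP-seq for CRY1 was carried out by the authors in C4-2 cells (2 immunoprecipitated libraries, 1 input). Reads were aligned by the authors to hg19 with bowtie2, and peaks were called with MACS2 on the combined replicates at q below 0.05. Use of the input as control is presumed, and handling of duplicate reads is not given in the sources used here. The deposited list gives each peak a score, the authors' fold enrichment (a linear ratio at the summit), and deposited −log10 p and −log10 q values. Since replicates were pooled before calling, a peak seen in 1 library cannot be told from a peak seen in both, and a close pair of sites can merge into 1 wide peak.

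From these, peaks on chromosomes 1 to 22 of at least 600 bp were taken. The members, motifs and gene lists were chosen with earlier results of these data known. Sequence came from GRCh37 and start sites from GENCODE release 44 mapped to that assembly. Motifs were searched on both strands with Python 3.11.15 and pysam 0.24.0. Their counts were tested on simulated sequence. Summits were placed in 7 classes, with promoters first, then termination sites, untranslated regions, exons and introns, and the rest intergenic. Shares have Wilson 95% intervals, and odds ratios have intervals from their log standard error. Fisher's exact tests (scipy 1.17.1) were adjusted by the Benjamini-Hochberg method over 14 motifs and over 7 classes. The two-sided tests count peaks, and peaks within 10 kb are not independent. Widths, fold enrichment, summit place and satellites share the pileup that chose the peaks and were not tested.

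Peaks were named by their nearest protein-coding start site. Those named were the 12 widest, the 10 of highest fold enrichment, the 5 with most CACGTG, the 5 strongest without it, the 5 of lowest fold enrichment, all within 5 kb of a listed gene, 3 on each side of the minimum width and those with most satellites. Peaks of tandem pairs, summits far from a site or off center were named after their values were seen. Some items that these rules would name are not reported here. Alternatives varied the minimum width, windows, motif, distances and peak subsets.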

Additional observations from a re-analysis of the deposited data

How the results depend on the processing

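No paired analysis was possible because a joint call on both replicates gave 1 list, and for the same reason no library could be left out. The number of wide peaks was 409 with a minimum of 500 bp, 316 when peaks within 100 bp were merged first and 308 with chromosome X, and it fell to 147 at 800 bp and 68 at 1000 bp. The summit E-box odds ratio of 2.82 kept its direction and its call in 12 of 15 alternatives. By Fisher's exact test it was 1.69 (adjusted p = 0.129) with a minimum of 1000 bp, for 68 wide and 2432 narrower peaks. At a fold enrichment of at least 8 it was 1.89 (adjusted p = 0.0686, Fisher's exact test), for 213 wide and 148 narrower peaks. The shares there were 71.8% and 57.4%, against 69.7% and 44.8% in the main comparison. It turned to 0.954 when the window was centered on the midpoint of the peak, which the width sets, instead of its summit. The promoter odds ratio of 1.41 kept its direction and call in 7 of 11. It lost the call at 800 bp (1.48), at 1000 bp (1.81) and with chromosome X (1.25), and with both sets limited to a fold enrichment of 8 or more the ratio turned to 0.930. The share with 2 or more E-boxes moved to 36.6% within 600 bp about the summit, 59.3% with CACGTT added, 59.2% at 800 bp and 67.6% at 1000 bp. The density ratio of wide peaks over flanks was 9.43 with flanks from 1 kb away, 5.33 with CACGTT added and 3.91 with 100 bp on each side of the summit left out. Satellites accompanied 34.0% at 800 bp and 45.6% at 1000 bp. The E-box nearest to the summit lay in the central part of 70.3% of the 259 wide peaks with a CACGTG, and 4 of the 8 tandem pairs lay within 50 bp of a summit. The number of clock genes with a wide peak was 13 at 500 and 800 bp and 11 at 1000 bp, an alternative chosen after seeing the data.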
